A study of Homo sapiens with 8 samples.

Results

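The genes described here are 30 genes of the mature absorptive cells of the gut, the enterocytes of the small intestine and the colonocytes of the colon, measured in LoVo and GP5d, 2 lines of human colorectal cancer cells. They were chosen by name and not by a cut on their values, but with earlier results of these data known. Each was found in the data by its Ensembl gene ID. Of the 30, 29 had a row among the 19002 genes measured, and PHGR1 had none. LoVo was derived from a metastasis of a colon adenocarcinoma, and GP5d is labelled as a colorectal cancer line. Both were grown on plastic in the same serum-containing medium to the same confluency, with no treatment or engineered change named, and total RNA of 4 biological replicates of each line was hybridised to Affymetrix expression arrays. No label says whether the replicates were separate cultures. The p-values below set the difference between the lines only against the spread among these samples of a line. Each line stands for itself only.

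Absorptive cells arise from stem cells at the base of the crypt and mature as they move towards the surface. A mature cell carries a brush border, a dense array of microvilli held up by bundled actin, on which digestive enzymes and transporters sit. Small intestinal enterocytes also take up dietary fat and export it as lipoproteins, whereas colonocytes mainly exchange salt and water. Colorectal cancer lines keep parts of this programme to differing degrees.

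The array values are log2 expression values, 1 per gene and array, so a difference of 1 is a 2-fold difference. The lowest 46.2% of all values are crowded together below 2.81, a range here called the low peak. Values in it are close to background and have no reliable order. A gene was called different where the adjusted p of limma, a linear model fitted to all 19002 genes, was under 0.05 and the 2 lines differed by at least 2-fold. Differences are LoVo minus GP5d throughout. Levels are compared between lines for the same gene, not between genes, because probes differ in brightness. LoVo replicate 3 stood apart from its group: its correlations with the other LoVo arrays were 0.989 to 0.991, and the highest correlation among LoVo arrays was 0.997. At the 12 of these genes that lay above the low peak on all 4 LoVo arrays, this array had the lowest LoVo value at 8 (66.7%), compared with 41.4% of all 9511 such genes. At the other 17 the same array had the highest LoVo value at 9 (52.9%), compared with 50.5% of all 9491 such genes. Its part in each result was measured by leaving it out.

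By limma with all 8 arrays, 7 of the 29 genes passed this call. LoVo had more of CA2, MYO1A, EPS8, DPP4 and CDH17 (5 genes), and GP5d had more of LGALS4 and ANPEP (2 genes). The share called was 24.1% here and 13.3% over all genes. For calls with LoVo higher it was 17.2% here and 6.12% over all genes, and for calls with GP5d higher it was 6.9% and 7.2%. The median log2 difference of the 29 genes was 0.11, beside 0.05 over all genes. Differences of at least 16-fold were found at CA2, MYO1A and ANPEP (10.3% of the genes), where 0.953% of all genes reached that size and passed the adjusted p. These shares are descriptions only, because the genes were chosen with earlier results of these data known. The same 7 genes were called without LoVo replicate 3. In RNA from whole cultures, fewer cells of a type and less RNA per cell cannot be told apart.

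**Figure D1:**
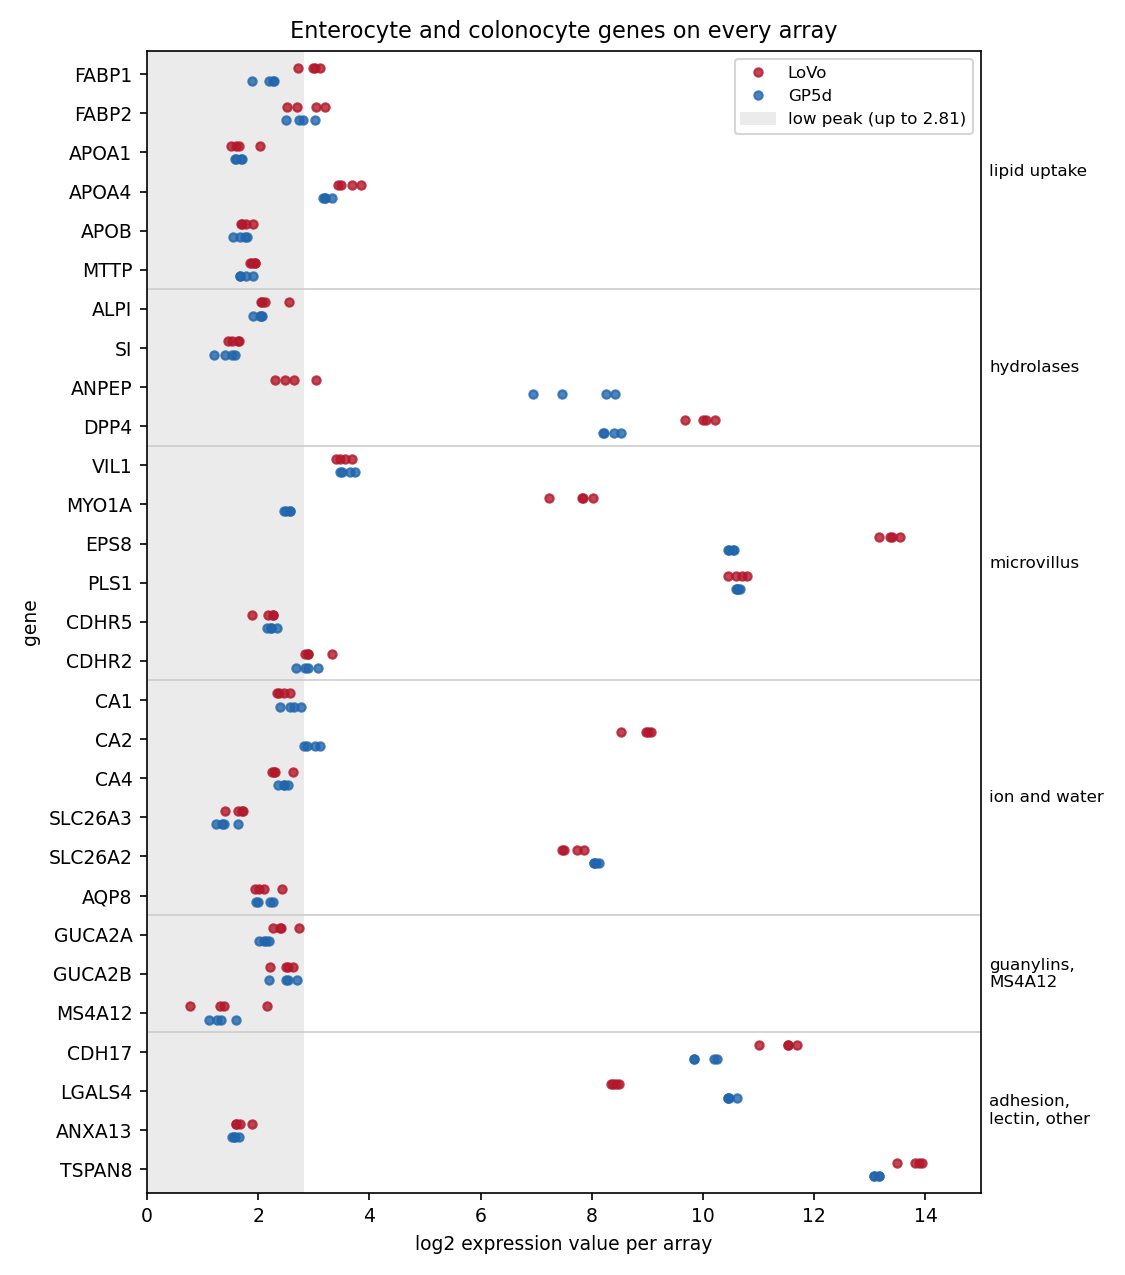
Log2 expression value (horizontal axis) of each of the 29 genes (rows, grouped by role) on the 4 LoVo arrays (red, upper points of a row) and the 4 GP5d arrays (blue, lower points). The grey band is the low peak, which ends at 2.81; 14 genes have all 8 values inside it and 10 have all 8 above it.

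Close to background was the most common state. On all 8 arrays, 14 of the 29 genes (48.3%) lay within the low peak, compared with 38.5% of all genes. A further 10 (34.5%, compared with 47.2% of all genes) stayed above it throughout, namely VIL1, CDH17, CA2, SLC26A2, APOA4, DPP4, LGALS4, EPS8, PLS1 and TSPAN8. MYO1A was the 1 gene (3.45%, compared with 1.59% of all genes) that lay above the peak throughout LoVo and within it throughout GP5d. The reverse was found at 0 genes, compared with 1.93% of all genes. The remaining 4 genes (13.8%, compared with 10.7% of all genes), FABP1, FABP2, ANPEP and CDHR2, had values on both sides of the limit among the arrays of a line. The labelled tissue was checked on 3 defining genes of gut epithelium. CDH17 and LGALS4 were far above the low peak in both lines. VIL1, the gene of villin, was only just above it in both.

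The microvillus group held 6 genes, of which 2 were called, both higher in LoVo. MYO1A (ENSG00000166866_at) encodes brush border myosin I, which ties the actin core of the microvillus to its membrane. Its values were 8.03, 7.84, 7.23 and 7.82 on the LoVo arrays, against 2.49, 2.46, 2.57 and 2.57 on the GP5d arrays. Every GP5d value lay in the low peak and every LoVo value far above it, with LoVo replicate 3 the lowest of the LoVo values. LoVo was at least 30.2-fold higher with the GP5d values raised to the end of the peak, and at least 24.3-fold with that end taken at 3.12. On the values as given the log2 difference was 5.20 (limma SE 0.153, adjusted p = 3.69e-09). Without LoVo replicate 3 the log2 difference was 5.37.

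EPS8 (ENSG00000151491_at) encodes a protein that caps and bundles actin filaments at the tips of microvilli, and it also acts in growth factor signalling in many cell types. Its values were 13.53, 13.40, 13.16 and 13.36 in LoVo, against 10.54, 10.56, 10.46 and 10.46 in GP5d. The lines did not overlap, and the gene was well above the low peak in both. LoVo was 7.25-fold higher (95% confidence interval 6.29 to 8.35, limma adjusted p = 7.87e-09), with a log2 difference of 2.86 (SE 0.0917), or 2.93 without LoVo replicate 3.

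PLS1, VIL1, CDHR5 and CDHR2 were not called. PLS1 encodes plastin 1, an actin bundler of the microvillus core. LoVo averaged 10.63 ± 0.149 and GP5d 10.62 ± 0.0314 (SD, n = 4 each). The 95% confidence interval of the difference ran from -0.19 to 0.20 on the log2 scale. Both lines thus had PLS1 well above the low peak, and the interval leaves no room for a 2-fold difference between them. VIL1 encodes villin, another actin bundler and a standard marker of gut epithelium, and gave 3.47, 3.56, 3.40 and 3.68 in LoVo, against 3.74, 3.65, 3.47 and 3.51 in GP5d. The ranges overlapped, and all 8 values lay less than 1 unit above the end of the low peak. CDHR2 and CDHR5 encode the cadherins that link the tips of neighbouring microvilli. CDHR5 lay within the low peak on all 8 arrays, at 1.89 to 2.27 in LoVo and 2.16 to 2.33 in GP5d. CDHR2 was at 2.90, 2.85, 2.89 and 3.32 in LoVo, against 3.07, 2.68, 2.90 and 2.84 in GP5d, values that straddle the limit and overlap between the lines.

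**Figure D2:**
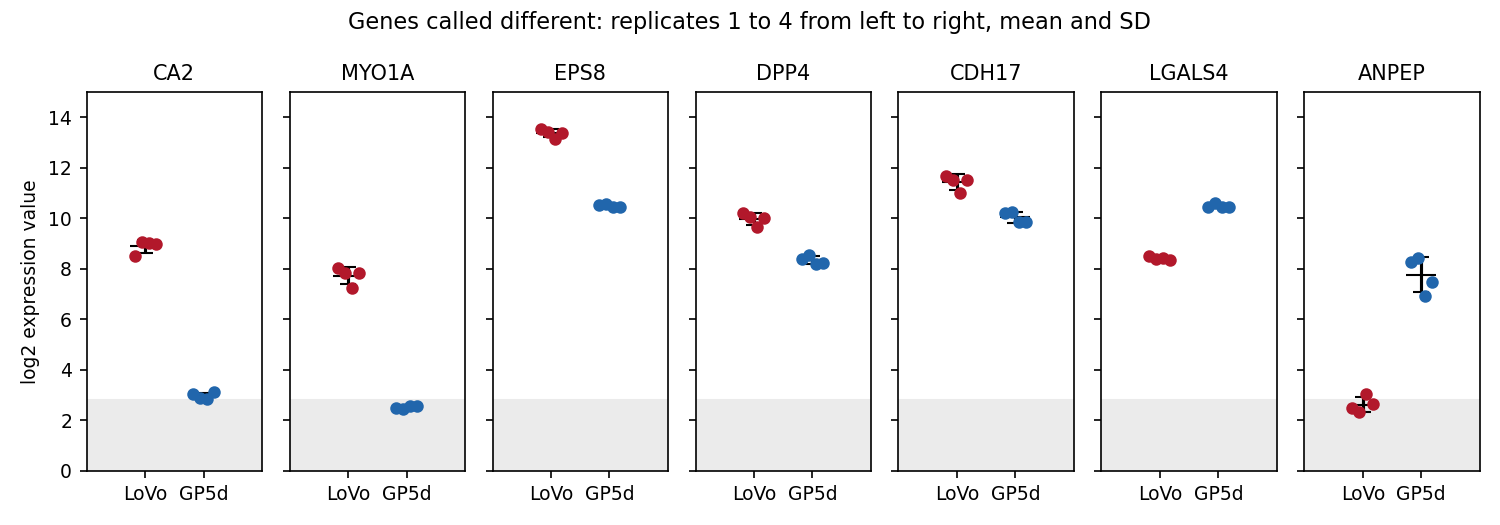
Log2 expression values (vertical axis) of the 7 called genes, with the 4 LoVo arrays (red) left of the 4 GP5d arrays (blue), replicates 1 to 4 from left to right in each line, and bars for the mean and SD. The grey band is the low peak. No gene shows overlap between the lines, and the spread is widest for ANPEP in GP5d, from 6.93 to 8.42.

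Among the 4 hydrolases of the brush border, the 2 peptidases were called, in opposite directions, and the 2 others lay in the low peak. ANPEP (ENSG00000166825_at) encodes aminopeptidase N (CD13), which removes amino acids from the ends of peptides. Its values were 2.48, 2.30, 3.03 and 2.64 in LoVo, against 8.25, 8.42, 6.93 and 7.46 in GP5d. Of the LoVo values only that of replicate 3 lay above the low peak, and every GP5d value was far above it. GP5d was at least 29.9-fold higher, with the low LoVo values raised to the end of the peak, and at least 25.0-fold with that end taken at 3.12. On the values as given the log2 difference was -5.15 (SE 0.305, limma adjusted p = 5.48e-07). Without LoVo replicate 3 the log2 difference was -5.29.

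ANPEP also differed among the GP5d arrays themselves. Its SD there was 0.694, and of the 10234 genes with a GP5d mean above the low peak only 18 (0.176%) had a larger one. GP5d replicates 1 and 2 were both higher than replicates 3 and 4. The lowest GP5d value still exceeded the highest LoVo value, 3.03, so the direction held on every array while the size depended on which GP5d arrays were used. The log2 difference was -4.93 without GP5d replicate 2, -4.99 without replicate 1, -5.25 without replicate 4 and -5.43 without replicate 3.

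DPP4 (ENSG00000197635_at) encodes dipeptidyl peptidase 4 (CD26), which cleaves dipeptides from peptides and hormones. Its values were 10.22, 10.05, 9.67 and 9.99 in LoVo, against 8.40, 8.53, 8.20 and 8.22 in GP5d. The lines did not overlap, and both were well above the low peak. LoVo was 3.12-fold higher (95% confidence interval 2.57 to 3.81, limma adjusted p = 3.68e-06), with a log2 difference of 1.64 (SE 0.127), or 1.75 without LoVo replicate 3. SI encodes sucrase-isomaltase, which splits sucrose and the ends of starch, and lay at 1.45 to 1.66 in LoVo and 1.20 to 1.59 in GP5d. ALPI encodes intestinal alkaline phosphatase and lay at 2.04 to 2.55 in LoVo and 1.90 to 2.07 in GP5d. Both were within the low peak on all 8 arrays, so no order of the lines can be read from them. ALPI has close relatives among the alkaline phosphatases, and whether the probes tell them apart was not tested.

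Carbonic anhydrases and ion or water transporters made up 6 genes, of which only CA2 was called. CA2 (ENSG00000104267_at) encodes a cytosolic carbonic anhydrase, an enzyme that makes bicarbonate for exchange across the cell surface. Its values were 8.52, 9.06, 9.01 and 8.98 in LoVo, against 3.03, 2.87, 2.82 and 3.11 in GP5d. LoVo was 61.1-fold higher (95% confidence interval 50.0 to 74.7, log2 difference 5.93, SE 0.129, limma adjusted p = 4.48e-10), and the log2 difference was 5.89 without LoVo replicate 3. The GP5d values sat at the very end of the low peak. Where its end was taken 4 instead of 3 SDs above the mode, at 3.12, they were all inside it, and LoVo was then at least 54.5-fold higher.

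The 2 other carbonic anhydrases did not share this difference. CA1, a second cytosolic form found in colonocytes, lay at 2.34 to 2.57 in LoVo and 2.40 to 2.77 in GP5d. CA4, a form anchored on the cell surface, lay at 2.25 to 2.63 in LoVo and 2.35 to 2.53 in GP5d. Both were within the low peak on all 8 arrays, and their values overlapped between the lines.

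SLC26A2 encodes a sulfate transporter that supplies sulfate for mucins and matrix. Its values were 7.86, 7.73, 7.46 and 7.49 in LoVo, against 8.04, 8.04, 8.13 and 8.07 in GP5d. The lines did not overlap, but the log2 difference of -0.43 (SE 0.101, limma adjusted p = 0.00578) was under 2-fold and the gene was not called. SLC26A3, the chloride and bicarbonate exchanger of colonocytes, lay at 1.39 to 1.72 in LoVo and 1.24 to 1.64 in GP5d. AQP8, a water channel of surface colonocytes, lay at 1.95 to 2.42 in LoVo and 1.97 to 2.27 in GP5d. These 2 transport genes of the mature colon were thus in the low peak in both lines.

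Guanylin (GUCA2A) and uroguanylin (GUCA2B) are peptides that activate guanylate cyclase C on the gut surface, and MS4A12 encodes a membrane protein of mature colonocytes. None of the 3 was called and all lay within the low peak on all 8 arrays. GUCA2A averaged 2.46 ± 0.197 over the LoVo arrays and 2.11 ± 0.0710 over the GP5d arrays (SD, n = 4 each), and its log2 difference of 0.34 had a limma adjusted p of 0.0230. That value was 0.0557 with the replicate number as a block, and such values have no reliable order. GUCA2B ranged from 2.21 to 2.62 in LoVo and from 2.20 to 2.70 in GP5d. MS4A12 ranged from 0.76 to 2.16 in LoVo and from 1.12 to 1.61 in GP5d, so its spread in LoVo was wider than any distance between the lines.

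None of the 6 genes of lipid uptake and lipoprotein assembly was called. APOB, the structural protein of chylomicrons, MTTP, which loads lipid onto it, and APOA1, the main protein of high-density lipoprotein, lay within the low peak on all 8 arrays. APOB averaged 1.77 ± 0.103 over the LoVo arrays and 1.69 ± 0.111 over the GP5d arrays (SD, n = 4 each). MTTP averaged 1.90 ± 0.0422 in LoVo, with 1.76 ± 0.111 in GP5d, and APOA1 averaged 1.70 ± 0.227 in LoVo, with 1.64 ± 0.0680 in GP5d. These 3 genes of lipoprotein export were thus close to background in both lines.

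The other lipid genes were APOA4, FABP1 and FABP2. APOA4, an apolipoprotein that the small intestine secretes with chylomicrons, was at 3.49, 3.43, 3.85 and 3.68 in LoVo, against 3.33, 3.20, 3.17 and 3.20 in GP5d. The lines did not overlap, but the log2 difference of 0.39 (limma SE 0.103, adjusted p = 0.0112) was under 2-fold. FABP1, a cytosolic fatty acid carrier of liver and gut, was at 2.98, 3.01, 2.71 and 3.10 in LoVo, against 2.20, 2.27, 2.28 and 1.89 in GP5d. All GP5d values and that of LoVo replicate 3 were in the low peak. Its log2 difference of 0.79 (SE 0.117, limma adjusted p = 0.000330) was under 2-fold, and with low values raised to the end of the peak it was 0.17 with an adjusted p of 0.0841. FABP2, the intestinal fatty acid carrier, gave 2.70, 2.51, 3.20 and 3.03 in LoVo, against 2.49, 2.73, 2.80 and 3.01 in GP5d, and the lines overlapped.

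The last group held 4 genes of adhesion, lectin and other surface functions, and 2 were called, 1 in each direction. CDH17 (ENSG00000079112_at) encodes LI-cadherin, a cell adhesion molecule of gut epithelium. Its values were 11.69, 11.53, 11.00 and 11.53 in LoVo, against 10.20, 10.24, 9.84 and 9.84 in GP5d. LoVo was 2.65-fold higher (95% confidence interval 2.07 to 3.40, log2 difference 1.41, SE 0.160, limma adjusted p = 5.31e-05), or 1.55 on the log2 scale without LoVo replicate 3. CDH17 was the 1 called gene that missed the threshold in the treat test of limma (adjusted p = 0.193), where the null is a difference of up to 2-fold. The other 6 passed it, where 6.58% of all genes did.

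LGALS4 (ENSG00000171747_at) encodes galectin-4, a sugar-binding protein of gut epithelium that takes part in sorting proteins to the brush border. Its values were 8.49, 8.38, 8.43 and 8.34 in LoVo, against 10.45, 10.61, 10.46 and 10.46 in GP5d. The replicates of each line lay close together and far from the other line. GP5d was 4.24-fold higher (95% confidence interval 3.77 to 4.77, log2 difference -2.09, SE 0.0760, limma adjusted p = 1.91e-08), and the log2 difference was also -2.09 without LoVo replicate 3.

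TSPAN8 encodes a tetraspanin, a membrane organiser found on gut and tumour cells. Its values were 13.89, 13.94, 13.49 and 13.82 in LoVo, against 13.17, 13.17, 13.07 and 13.07 in GP5d. The lines did not overlap, yet the log2 difference of 0.66 (SE 0.106, limma adjusted p = 0.000541) was under 2-fold, and it was 0.76 without LoVo replicate 3. The gene was far above the low peak on every array. ANXA13, an annexin of gut epithelium, lay at 1.60 to 1.88 in LoVo and 1.53 to 1.65 in GP5d, within the low peak on all 8 arrays.

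**Figure D3:**
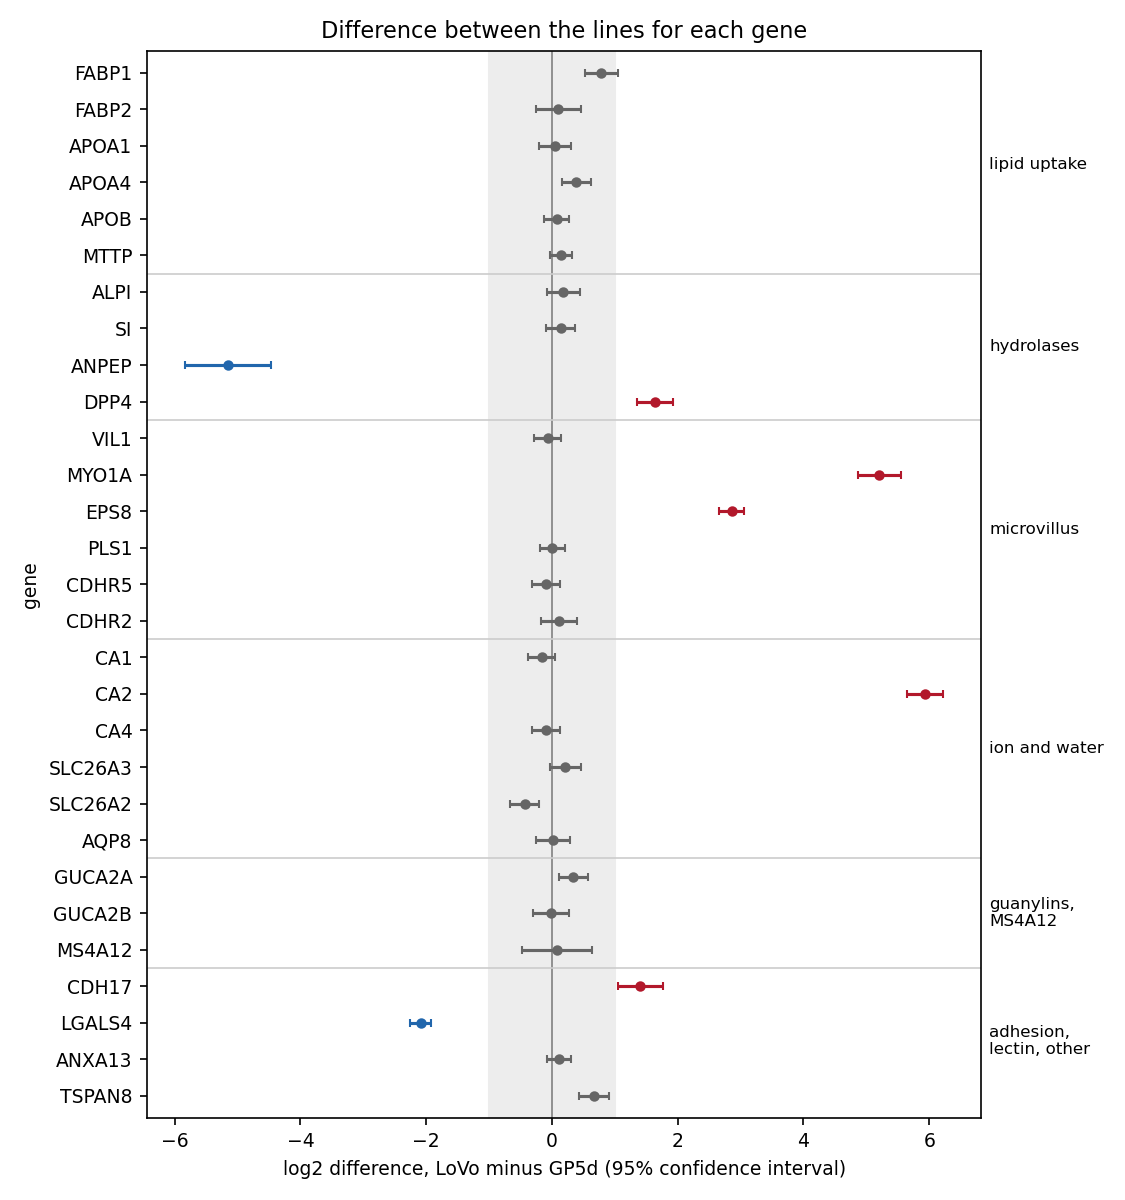
Log2 difference, LoVo minus GP5d, of each of the 29 genes with its 95% confidence interval from limma (4 arrays per line). Called genes are red where higher in LoVo and blue where higher in GP5d, the others grey, and the shaded band marks differences under 2-fold. All 22 genes that were not called have estimates inside the band.

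Without the 2-fold minimum, 12 of the 29 genes (41.4%) passed the adjusted p, close to the 43.3% of all genes. The 5 that passed with a smaller difference were FABP1, APOA4 and TSPAN8, higher in LoVo, SLC26A2, higher in GP5d, and GUCA2A, whose values in the low peak give no reliable order. With low values raised to the end of the peak 10 passed, without FABP1 and GUCA2A, and after quantile normalization or cyclic loess 11 passed, without GUCA2A. The lines were fully separated, with no overlap of their 4 and 4 values, at the same number of genes, 12 (41.4%), and over all genes at 44.1%. The adjusted p of the other 17 genes lay between 0.157 and 0.963, their log2 differences lay between -0.16 and 0.21, and the 95% confidence intervals reached at most from -0.47 to 0.63. Most of these genes were in or near the low peak, so the narrow intervals describe the measured values and not the RNA below the limit of the array.

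**Figure D4:**
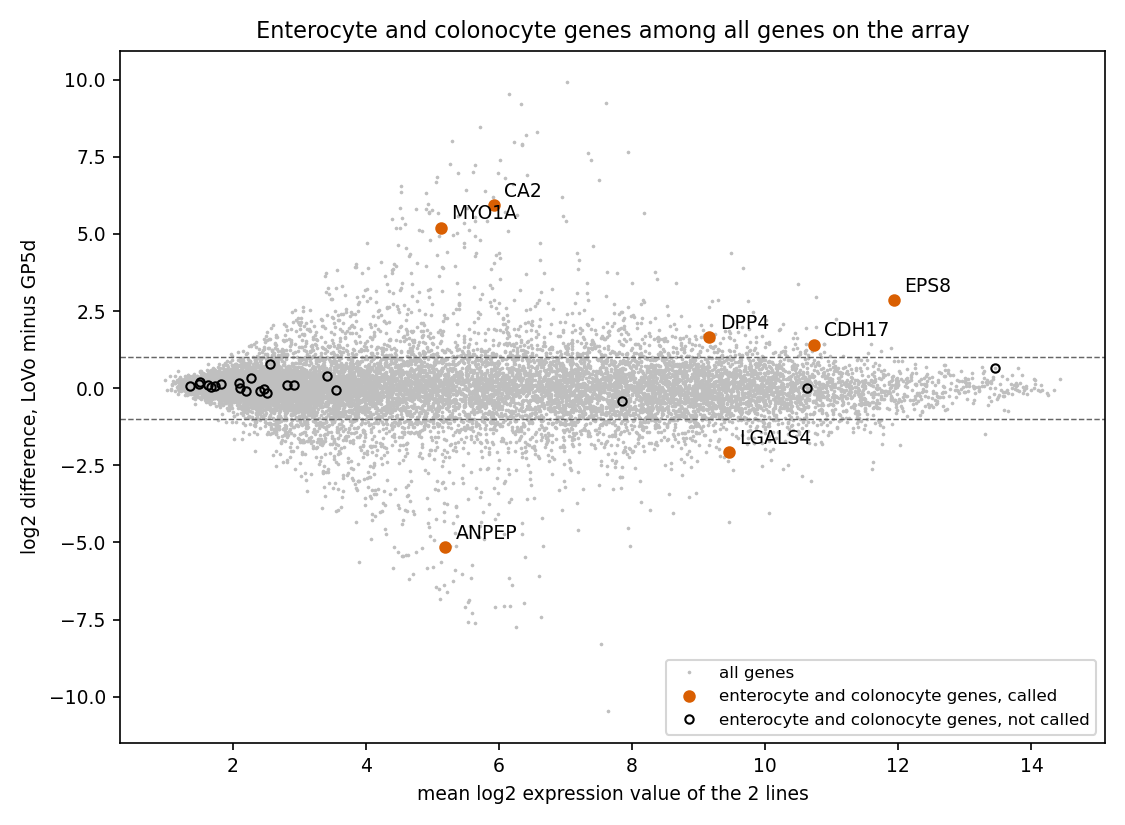
Mean log2 expression value of the 2 lines (horizontal axis) against the log2 difference, LoVo minus GP5d (vertical axis), for all 19002 genes (grey) with the called enterocyte and colonocyte genes (orange) and those not called (open circles). Dashed lines mark 2-fold. CA2 at 5.93, MYO1A at 5.20 and ANPEP at -5.15 lie far outside the lines, and most open circles lie at the low end of the horizontal axis.

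Promoter sequences are shown for the called genes that were matched in the RefSeq promoter table, MYO1A, ANPEP, DPP4 and LGALS4. They are also shown for 2 genes that contrast with them, TSPAN8, high in both lines, and SI, in the low peak in both. With some promoters left out of the search, as stated below, 19 of the 30 genes matched the table (GRCh38.p14) by symbol. Each sequence is the 250 bases before an annotated transcription start, 5′ to 3′ on the strand of the gene. Capitals mark letters of 4 short motifs, searched for on both strands. The HNF1 motif was GTTAAT. The CDX motif was TTTATNG. The HNF4 motif was CAAAGTC. For GATA factors, the letters searched were AGATAA. These are shortened forms of the factors' known sites, and the factors are known regulators of gut epithelial genes. A motif on the opposite strand appears as its reverse complement. Where a gene has 2 annotated starts in the table, the start shown is the one with more of the motifs before it.
MYO1A, chr12:57050130-57050379 (- strand): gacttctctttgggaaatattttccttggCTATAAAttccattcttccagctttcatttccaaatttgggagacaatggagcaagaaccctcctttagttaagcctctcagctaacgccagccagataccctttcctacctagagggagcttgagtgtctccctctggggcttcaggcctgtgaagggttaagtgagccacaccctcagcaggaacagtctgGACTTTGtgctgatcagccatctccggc
ANPEP, chr15:89806629-89806878 (- strand): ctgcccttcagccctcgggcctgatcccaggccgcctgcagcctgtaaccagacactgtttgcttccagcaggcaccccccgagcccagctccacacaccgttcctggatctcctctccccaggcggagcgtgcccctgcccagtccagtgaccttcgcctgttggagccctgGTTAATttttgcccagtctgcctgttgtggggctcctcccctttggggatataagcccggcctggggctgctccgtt
DPP4, chr2:162074216-162074465 (- strand): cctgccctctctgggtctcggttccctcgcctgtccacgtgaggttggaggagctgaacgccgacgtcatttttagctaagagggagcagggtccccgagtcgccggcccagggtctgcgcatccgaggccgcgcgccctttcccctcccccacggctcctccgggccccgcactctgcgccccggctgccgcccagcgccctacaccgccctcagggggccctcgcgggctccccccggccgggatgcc
LGALS4, chr19:38812946-38813195 (- strand): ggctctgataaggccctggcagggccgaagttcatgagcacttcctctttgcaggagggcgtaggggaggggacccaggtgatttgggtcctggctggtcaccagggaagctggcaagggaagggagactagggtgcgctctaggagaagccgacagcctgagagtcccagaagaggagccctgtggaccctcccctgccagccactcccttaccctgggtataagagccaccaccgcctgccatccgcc
TSPAN8, chr12:71157810-71158059 (- strand): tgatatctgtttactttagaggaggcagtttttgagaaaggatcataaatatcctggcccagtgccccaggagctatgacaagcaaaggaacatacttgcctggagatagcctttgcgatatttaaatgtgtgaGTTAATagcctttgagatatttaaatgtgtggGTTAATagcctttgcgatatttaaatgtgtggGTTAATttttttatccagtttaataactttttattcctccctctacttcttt
SI, chr3:165078497-165078746 (- strand): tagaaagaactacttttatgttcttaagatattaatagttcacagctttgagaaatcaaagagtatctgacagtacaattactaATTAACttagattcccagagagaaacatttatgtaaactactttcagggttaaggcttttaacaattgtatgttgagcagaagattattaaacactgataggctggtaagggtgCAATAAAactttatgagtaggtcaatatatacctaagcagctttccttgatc

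The ANPEP promoter held 1 HNF1 motif, at positions -77 to -72 from the start, and the MYO1A promoter held a CDX motif and an HNF4 motif. The DPP4 and LGALS4 sequences held none of the 4 motifs. TSPAN8 held 3 HNF1 motifs, which begin at positions -116, -84 and -52, in a repeated stretch. SI, whose values were in the low peak in both lines, held an HNF1 motif and a CDX motif, so the letters were also found in a gene close to background. Both contrast genes shown thus hold motifs, whereas SLC26A2 and APOA4, not called and not shown, held none. The other annotated starts of ANPEP and TSPAN8 had none before them. In windows from 250 bases before to 50 after the start, GTTAAT was present for 7 of the 19 genes (36.8%), beside 8.27% of all 27305 genes in the table. TTTATNG was also present for 7 (36.8%), beside 11.9%. CAAAGTC was present for 4 (21.1%), beside 4.16%, and AGATAA for 5 (26.3%), beside 12.4%. The shares over all genes include promoters on chr8, which were left out when the genes described here were matched. A gene without a match, CA2 or CDH17 for example, may therefore still be in the promoter table. No 2 matches overlapped in these genes. A match is a run of letters and not a measured binding site, and no test was run on these shares.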

How the data were processed

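RNA of 4 LoVo and 4 GP5d samples was measured, 1 array each. The authors deposited 1 table of log2 expression values, with column medians of 3.05 to 3.11. RMA and GCRMA are named without a role, per the submitters' processing notes. Which of the 2 made the table is unknown. The row IDs show that the probes were grouped by Ensembl gene. The sources used here give neither the array type nor the version of that grouping. The scale was read from the values (0.472 to 14.7), and genes were not centred. The table pairs no ID with a name. The names of the 30 genes came with their IDs when the genes were chosen, and no other row could be named, so the other brush border genes and the markers of other cell types that had been listed were not analysed here.

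The deposited values of the 8 arrays were fitted with lmFit and eBayes of limma 3.58.1 (R 4.3.3), which left 6 residual degrees of freedom, and p-values of all 19002 genes were adjusted together (Benjamini-Hochberg). The script was tested on simulated data. The low peak ends at its mode (1.875, the fullest bin of 0.05) plus 3 SDs, with the SD taken from the values below it (0.312). All members are named, and those called, or on both sides of the limit within a line, have their values printed on every array. Some other genes near the limit or with non-overlapping lines were printed so after their values were seen. The members, the lists, the motifs and the tests were chosen with earlier results of these data known. Alternatives were other normalizations, filters, variance priors, array weights, a replicate block, arrays left out and other thresholds. Arrays give no read depth, and their number limits the precision. Planned comparisons of protein sequences were not run. Plots used matplotlib 3.10.9.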

Additional observations from a re-analysis of the deposited data

Results flagged for a closer look

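In each of the 58 groups of 4 arrays (29 genes in 2 lines), the array farthest from the others was examined with Dixon's ratio. In 5 groups 1 array lay apart, where chance gives about 1 in 20 groups. CA2 was lower on LoVo replicate 1, at 8.52, than on the other LoVo arrays, at 8.98 to 9.06, and stayed far above GP5d. LGALS4 was higher on GP5d replicate 2, at 10.61, than on the other GP5d arrays, at 10.45 to 10.46, a small distance among very close values. The 3 others lay in or near the low peak. ALPI was at 2.55 and CA4 at 2.63 on LoVo replicate 3, against 2.04 to 2.12 and 2.25 to 2.29 on the other LoVo arrays. CDHR2 was at 3.32 on LoVo replicate 4, against 2.85 to 2.90 on the other LoVo arrays.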

How the results depend on the processing

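The 7 called genes were called, in the same direction, under each alternative that kept the threshold and tested a difference from 0: quantile normalization, cyclic loess, a common median, dim genes left out, low values raised, a trended and robust prior, array weights, the replicate block and each array left out. The filter on dim genes kept those above the low peak on at least 4 arrays. MYO1A passed it through LoVo alone and ANPEP mainly through GP5d, so for these genes it is no separate check. Raising low values made the 14 genes within the peak throughout constant, so their lack of a call there was fixed beforehand. Of 448 values for single genes under these alternatives, 448 kept their call, that is, called or not called. Most belong to genes that were not called, and some of those changed sign, AQP8 and APOA1 among them. Settings that changed the threshold or the null are not among the 448. On the adjusted p alone 12 genes passed. LoVo was higher at 9 (31%, beside 21.5% of all genes), GUCA2A in the low peak among them. GP5d was higher at 3 (10.3%, beside 21.9% of all genes). With a minimum log2 difference of 2 there were 5, LoVo being higher at 3. Over all genes 721 (3.79%) passed that minimum, 348 of them higher in LoVo. These counts moved because of the threshold itself. The median log2 difference of the 29 genes, 0.11, was 0.0512 after cyclic loess, 0 with low values raised, and from 0.0696 without LoVo replicate 3 to 0.147 without LoVo replicate 1 when single arrays were omitted; the cause was not tested. With the end of the peak at 3 SDs, 1 gene lay above it throughout LoVo and within it throughout GP5d, and 0 genes the reverse. Over all genes these shares were 1.59% and 1.93%. The counts were 2 and 1 with the end of the peak at 4 SDs. Omitting single arrays gave 1 to 2 and 0 to 1, the higher counts without LoVo replicate 3. Arrays with the same replicate number did not deviate together: their correlations were -0.0257 to 0.0473, and 1 of the 4 LoVo arrays correlated best with its own number. With the replicate number as a block the same 7 genes were called, and GUCA2A alone lost its adjusted p. It also lost it after quantile normalization or cyclic loess and without GP5d replicate 1 or 4.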

Other observations

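GP5d replicates 1 and 2 were both higher than replicates 3 and 4 at 4 of the 7 called genes (ANPEP, CDH17, DPP4 and EPS8) and at 2 of the 22 others (VIL1 and TSPAN8). Of all 10234 genes with a GP5d mean above the low peak, 25.3% showed this order. That set is not like the 2 counts, because the GP5d means of MYO1A and of most of the 22 others were in the low peak. It was looked for after these values had been seen, the labels name no batch, and the order was not tested further.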
